A study of Mus musculus with 6 samples.

Results

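The growth factor genes followed here are known to be made by tumour macrophages: Igf1, Vegfa, Vegfb, Pdgfa, Pdgfb, Hbegf, Tgfb1, Tgfbi, Csf1 and Thbs1. They were chosen by gene symbol, and all 10 were found among the 55291 genes of the deposited table. The samples were tumour-associated macrophages (TAM) from mouse hepatocellular carcinoma, with 3 libraries of macrophages labelled TREM2+ and 3 of macrophages labelled TREM2-. TREM2 is a lipid-sensing surface receptor of macrophages. The labels leave out the mouse strain, age and sex, how the tumours arose, how the cells were gated, and whether replicates are separate animals. The p-values therefore reflect how far these libraries vary, and that variation may be technical.

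Macrophages in a tumour release factors that act on neighbouring cells. IGF1 signals growth and survival through the IGF1 receptor. VEGF-A drives the growth of vessels through receptors on endothelium, and VEGF-B binds only some of those receptors. PDGF-A and PDGF-B chains recruit stromal cells such as hepatic stellate cells, and HB-EGF is shed from the membrane to activate the EGF receptor. TGF-beta 1 is stored in a latent form that thrombospondin-1, the product of Thbs1, can activate. TGFBI is a matrix protein induced by TGF-beta, and CSF1 is the survival factor of macrophages themselves.

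Levels are given as TPM, a length-scaled value rescaled to a total of 1000000 in each library, so they can be compared between genes. The 6 libraries held between 11493461 and 19929829 recovered reads. Transcripts of a satellite-like repeat family took 0.704% to 17.5% of the TREM2+ libraries and 0.427% to 24.6% of the TREM2- libraries. Trem2 itself averaged 37.02 ± 5.51 TPM (SD, n = 3) in TREM2+ libraries and 19.5 ± 2.28 TPM in TREM2- libraries, and its transcripts were present in all 6. Trem2 did not pass the test used here (adjusted p = 0.0855 in limma) and was called in 1 of 17 other settings, voom on recovered reads. All 10 macrophage markers were detected in every library, but not at like levels. C1qa, a complement subunit gene, rose 6.24-fold (adjusted p = 0.00502 in limma). Mertk at 11.1 to 23.8 TPM in TREM2+ and 2.28 to 6.53 TPM in TREM2- libraries, Fcgr1 and Cd68 were higher and Lyz2 lower in every TREM2+ library without passing, and the other 5 overlapped. Among other lists, 3 of 9 basophil and mast cell markers were lower (Prss34, Mcpt8 and Cpa3), as were 1 each of the dendritic cell (Ccr7), monocyte (Ly6c2) and neutrophil (Camp) markers. Another basophil and mast cell marker was higher in every TREM2+ library without passing, with a log2 fold change of 1.09. That list summed to 158 to 259 TPM in TREM2+ and 214 to 355 TPM in TREM2- libraries, which overlapped. The neutrophil markers went both ways, with 6 of 10 above 0 in log2 fold change. S100a9 and Cxcr2 were higher, and Ngp and Camp lower, in every TREM2+ library than in any TREM2- library. The neutrophil list summed to 16390 to 20526 TPM in TREM2+ and 20426 to 23610 TPM in TREM2- libraries. By limma 0 T and NK cell, B cell or stellate cell markers were called; before adjustment 5 T and NK cell markers and 0 of the others were lower at p under 0.05, and voom called 1 T and NK cell marker lower. The T and NK cell list summed to 1449 to 1548 TPM in TREM2+ and 2083 to 5139 TPM in TREM2- libraries.

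Of the 10 genes only Igf1 passed the test across all genes, and it was higher in the TREM2+ libraries. Vegfa, Pdgfa and Hbegf were also higher in every TREM2+ library than in any TREM2- library but did not pass. The other 6 overlapped between the groups. The test was limma on log2(TPM + 1) with Benjamini-Hochberg adjustment over 13788 genes and a threshold of 0.05, where 2.05% of all genes were called higher and 0.37% lower in the TREM2+ libraries, or 2.42% in either direction. No member was called lower, and 0 were lower at p under 0.05 before adjustment, by limma or by voom on recovered reads. Before adjustment 4 of the 10 were higher at that level, against 7.45% of all genes tested. Groups without overlap, all TREM2+ libraries higher, were found for 4 of the 10 genes and for 9.07% of all genes tested. The opposite, all TREM2+ libraries lower, was found for 0 of the 10 and for 7.62% of all genes. Of the 4, Pdgfa reached 1 TPM in only 1 TREM2- library. It thus met the filter of 1 TPM in 3 or more libraries mainly through the TREM2+ group. The fold change on the log2 scale was above 0 for all 10 genes, with a median of 0.59, against 39.03% of all genes and a median of -0.09. The sign of Tgfbi turned without TREM2+ replicate 2 (-0.11), and those of Pdgfb (-0.02) and Tgfb1 (-0.0072) turned without TREM2- replicate 2; under the other scalings all tested members stayed above 0.

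**Figure D1:**
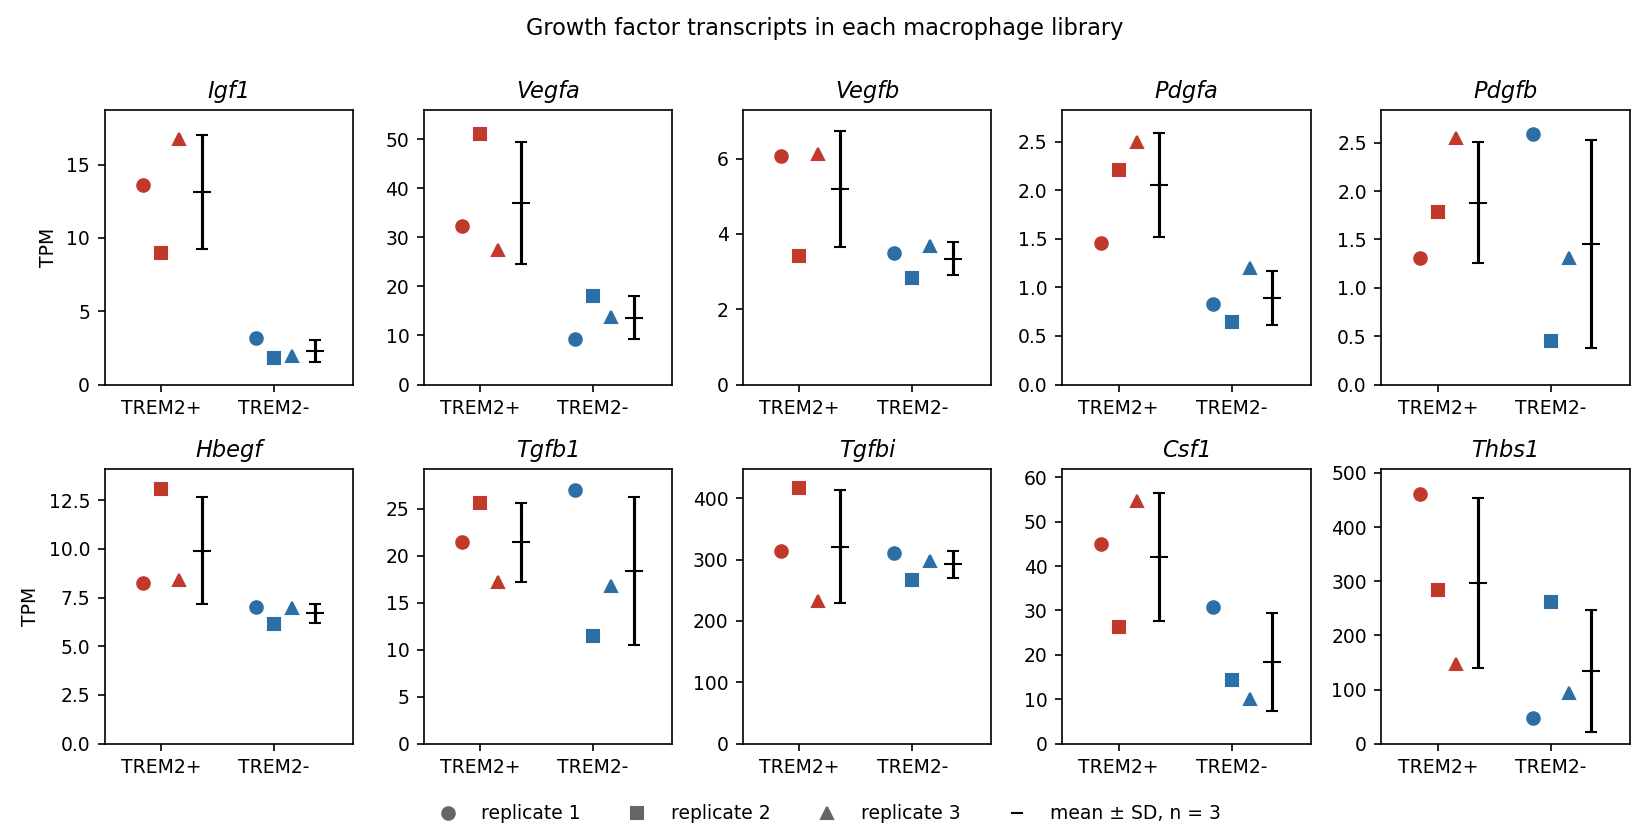
TPM of each growth factor gene (vertical axis, linear, from 0) in the 3 TREM2+ and 3 TREM2- libraries, with a symbol for each replicate and the mean ± SD beside it. Igf1 lay between 8.99 and 16.8 TPM in TREM2+ libraries and between 1.81 and 3.18 TPM in TREM2- libraries, while the TREM2- libraries of Tgfbi, at 267 to 311 TPM, lay inside the TREM2+ range of 232 to 416 TPM.

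Tgfbi was the most abundant of the 10 in both groups, at 321 ± 92.2 TPM in TREM2+ and 292 ± 22.7 TPM in TREM2- libraries, above 97.5% of the genes tested in TREM2+ and 97.3% in TREM2- libraries. Thbs1 came next in both, at 297 ± 157 TPM in TREM2+ and 134 ± 112 TPM in TREM2- libraries, and its range overlapped that of Tgfbi in the TREM2+ libraries. Among TREM2+ libraries Csf1, Vegfa, Tgfb1, Igf1, Hbegf, Vegfb, Pdgfa and Pdgfb followed in that order. Csf1 and Vegfa, Igf1 and Hbegf, and Pdgfa and Pdgfb were neighbours whose ranges overlapped there. Igf1 ranked 6 of 10 in TREM2+ libraries and 8 of 10 in TREM2- libraries, where its range overlapped those of Vegfb and Pdgfb. The TREM2- order was Tgfb1, Csf1, Vegfa, Hbegf, Vegfb, Igf1, Pdgfb and Pdgfa after Thbs1, with the ranges of Tgfb1, Csf1 and Vegfa overlapping from neighbour to neighbour, and likewise those of Vegfb, Igf1, Pdgfb and Pdgfa.

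Igf1 (ENSMUSG00000020053.18, chromosome 10, 87858265 to 87937042, mm10) stood at 13.6, 8.99 and 16.8 TPM in TREM2+ replicates 1, 2 and 3, against 3.18, 1.81 and 1.95 TPM in TREM2- replicates 1, 2 and 3. Every TREM2+ library was well above every TREM2- library. The values rested on 1042, 635 and 1066 reads in TREM2+ and 281, 134 and 124 reads in TREM2- libraries. The mean was 5.68-fold higher in TREM2+ libraries, with a log2 fold change of 2.08 ± 0.29 (SE) and an adjusted p of 0.00921 in limma. Leaving out any 1 of the 6 libraries kept the call of Igf1, with log2 fold changes from 1.89 to 2.31, but not without both libraries numbered 3, where it was 1.82 with an adjusted p of 0.235 in limma. An exact permutation test of 3 against 3 libraries gives p = 0.1, two-sided, for Igf1, Vegfa, Pdgfa and Hbegf, which is the smallest it allows.

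Scaling between libraries cancels in a ratio of genes within a library. The ratio of Igf1 to the macrophage receptor gene Csf1r was 0.0434, 0.0231 and 0.0652 in the TREM2+ libraries, against 0.00861, 0.0106 and 0.00973 in the TREM2- libraries, and the groups did not overlap. The ratio of Igf1 to Tgfb1 was 0.635, 0.351 and 0.973 in TREM2+ libraries, against 0.118, 0.158 and 0.116 in TREM2- libraries, also without overlap. Over the 10 macrophage markers the ratio of Igf1 to the marker was higher in every TREM2+ library for 7 and overlapped for 3, C1qa, Mertk and Cd14. Igf1 to C1qa was 0.00591, 0.00336 and 0.0081 in TREM2+ libraries, against 0.0105, 0.00678 and 0.00347 in TREM2- libraries. The ratio of Igf1 to Vegfa overlapped, at 0.423, 0.176 and 0.611 in TREM2+ and 0.346, 0.1 and 0.142 in TREM2- libraries. These ratios were chosen after the values were seen.

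Hepatocytes are the main source of circulating IGF1. Of 14 hepatocyte markers 12 were tested, 1 was called higher (Trf, which macrophages also express) and 0 lower by limma, and before adjustment 1 and 1 had p under 0.05. The list summed to 1268 to 1637 TPM in TREM2+ and 629 to 1410 TPM in TREM2- libraries, mostly from Trf in 5 of the 6. Without Trf it summed to 600.2, 211 and 248 TPM in TREM2+ libraries, against 902, 146 and 169 TPM in TREM2- libraries. Albumin (Alb) was at 74.4, 21.5 and 22.7 TPM in TREM2+ libraries, against 104, 12.3 and 11.9 TPM in TREM2- libraries, highest in TREM2- replicate 1, which also had the most Igf1 of its group at 3.18 TPM. Among TREM2+ libraries Alb was highest in replicate 1, but Igf1 was highest in replicate 3, at 16.8 TPM. The part of hepatocyte transcripts in the level of Igf1 was not tested. Igfals, the hepatocyte partner of circulating IGF1, stayed at or below 0.602 TPM in every library. In such bulk libraries more cells that make a transcript and more transcript per cell cannot be told apart.

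The genes whose levels followed Igf1 most closely over the 6 libraries, among 5858 genes with a mean of at least 10 TPM, were Slc40a1, H2bc4 and Pea15a, each with a Pearson correlation of log2 levels of 0.995. Slc40a1, the iron exporter ferroportin, averaged 156 ± 28.8 TPM in TREM2+ and 31.7 ± 7.77 TPM in TREM2- libraries. H2bc4, a histone gene, averaged 121 ± 10.9 TPM in TREM2+ and 62.7 ± 4.77 TPM in TREM2- libraries. Pea15a, which encodes an adaptor of ERK signalling, averaged 105 ± 14.05 TPM in TREM2+ and 45.4 ± 9.32 TPM in TREM2- libraries. All 6 points share the split into groups, so these correlations are a description.

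Of the other IGF genes, 9 of 18 were tested, 1 was higher and 0 lower, with a list median log2 fold change of 0.1. The one was Igfbp7, a secreted binding protein abundant in vessel walls, at 173, 137 and 150.5 TPM in TREM2+ libraries and 21.1, 14.5 and 11.2 TPM in TREM2- libraries. Its log2 fold change of 3.26 ± 0.26 had an adjusted p of 0.00242 in limma, and no single library was needed for that call (6 of 6 leave-one-out fits). The receptor gene Igf1r was low, at 1.57 ± 0.193 TPM in TREM2+ and 1.4 ± 0.162 TPM in TREM2- libraries, with a log2 fold change of 0.1 and a 95% interval from -0.45 to 0.64. Igf2 was listed at 0 in all 6 libraries.

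Vegfa (ENSMUSG00000023951.17, chromosome 17, 46016993 to 46032369, mm10) stood at 32.3, 51.1 and 27.4 TPM in TREM2+ replicates 1, 2 and 3, against 9.19, 18.1 and 13.7 TPM in TREM2- replicates 1, 2 and 3. The lowest TREM2+ library was above the highest TREM2- library. The mean was 2.71-fold higher in TREM2+ libraries, with a log2 fold change of 1.37 ± 0.31 and an adjusted p of 0.0644 in limma, short of the threshold. It passed in 3 of 17 other settings: with genes at 5 TPM or more (adjusted p = 0.0237), with voom on recovered reads (adjusted p = 0.0383) and without TREM2- replicate 2, with a log2 fold change of 1.58 and an adjusted p of 0.0215 in limma. The adjusted p over all settings ran from 0.0215 to 0.365. Relative to Tgfbi within a library, Vegfa was at 0.103, 0.123 and 0.118 in TREM2+ and 0.0295, 0.0677 and 0.0459 in TREM2- libraries, without overlap. That ratio was chosen after the values were seen, and it depends on the gene divided by. The ratio of Vegfa to Vegfb overlapped, and the macrophage marker C1qa rose 6.24-fold, more than Vegfa did.

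Promoter windows are shown for Vegfa and for Csf1, the macrophage factor described further on, which were picked by hand. Both had a log2 fold change above 1, and their 250 bases before the start touch no annotated exon in GENCODE M21. Igf1, with a log2 fold change of 2.08, also had a window, which is not printed and was not checked for exons. The capitals mark GGGCGG, the GC box, and CCAAT, both searched on both strands. The sequences are from RefSeq's GRCm38.p6, both on the minus strand and written 5′ to 3′, at chr17:46032378-46032627 and chr3:107760470-107760719.
Vegfa: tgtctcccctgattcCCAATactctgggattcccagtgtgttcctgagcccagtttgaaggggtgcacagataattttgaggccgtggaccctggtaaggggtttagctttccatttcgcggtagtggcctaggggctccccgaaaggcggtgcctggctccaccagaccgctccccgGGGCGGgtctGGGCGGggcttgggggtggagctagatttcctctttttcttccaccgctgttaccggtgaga
Csf1: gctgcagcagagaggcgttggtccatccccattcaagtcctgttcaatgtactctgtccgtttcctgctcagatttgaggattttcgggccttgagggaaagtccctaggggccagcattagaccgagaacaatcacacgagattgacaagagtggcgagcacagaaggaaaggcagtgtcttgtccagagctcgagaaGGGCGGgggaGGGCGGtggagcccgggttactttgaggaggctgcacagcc

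Both windows held a pair of GC boxes within 100 bases of the start, beginning 72 and 62 bases before it in Vegfa and 51 and 41 bases before it in Csf1. RefSeq windows of 300 bases, which run 50 bases past the start, were found for 7 of the 10 genes, 9 windows in all. GGGCGG was in 8 of the 9 windows, in 35.7% of all windows and in 78.1% of those of the hypoxia response genes, and CCAAT was in 3 of the 9 and in 37.4% of all. ACGTG, 1 form of the core of the hypoxia element, was in 1 of the 9, at a start inside Vegfa, in 19.6% of all and in 59.4% of those of the hypoxia response genes. Other forms of that core, and bases outside these windows, were not searched. These counts describe the letters in the windows and no binding.

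Vegfb (ENSMUSG00000024962.13, chromosome 19) was low and overlapped, at 6.06, 3.41 and 6.11 TPM in TREM2+ libraries and 3.5, 2.84 and 3.68 TPM in TREM2- libraries. Its log2 fold change was 0.48 with a 95% interval from -0.12 to 1.09, and it rested on 34 to 75 reads per library. The ratio of Vegfa to Vegfb was 5.33, 14.99 and 4.49 in TREM2+ and 2.63, 6.36 and 3.72 in TREM2- libraries, which overlapped.

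**Figure D2:**
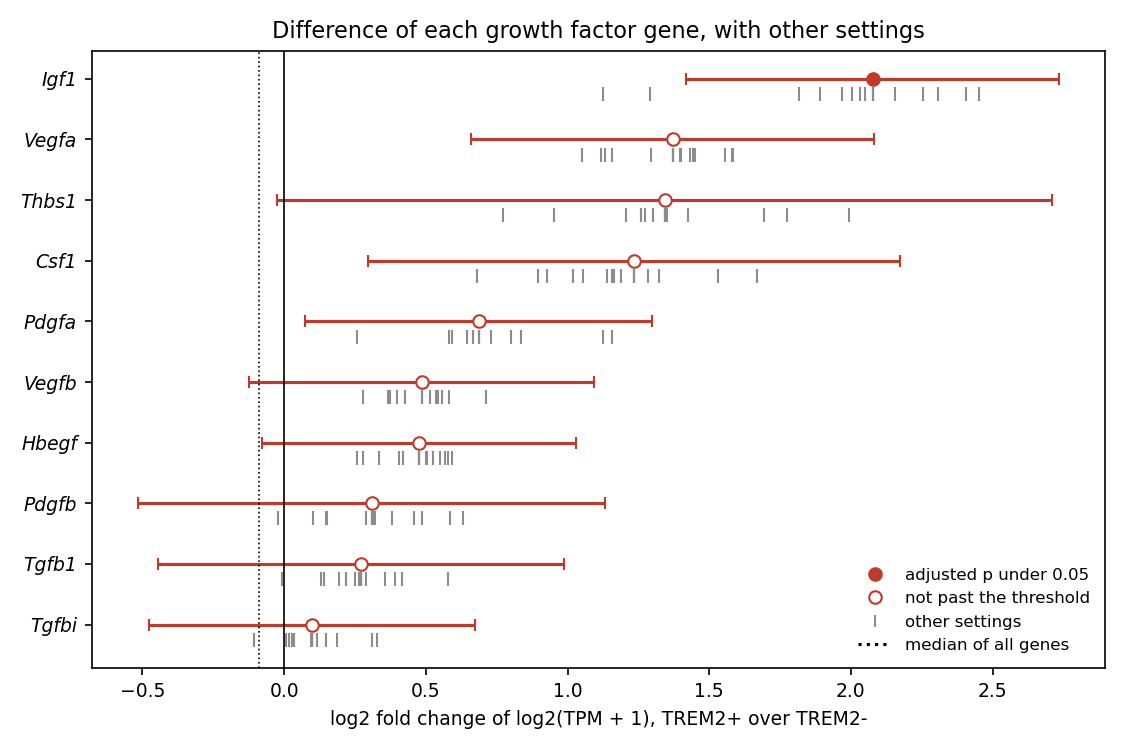
Difference of each growth factor gene between TREM2+ and TREM2- libraries as the log2 fold change of log2(TPM + 1) (horizontal axis), with its 95% interval in limma; filled points passed the threshold, grey ticks are the other settings, and the dotted line is the median of all genes. Igf1 is the only filled point at 2.08, and Vegfa, Thbs1 and Csf1 follow between 1.24 and 1.37 with wide intervals.

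Vegfa is a textbook target of the hypoxia response, and the genes of that list lay on the same side. Of 24 tested, 4 were higher and 0 lower by limma. All 24 had a log2 fold change above 0, with a list median of 0.77, against -0.09 for all genes, and every tested gene of the list stayed above 0 under each other scaling. Without TREM2- replicate 3, 23 of 24 were above 0. The lipid droplet gene Hilpda averaged 1026 ± 118 TPM in TREM2+ and 374 ± 138 TPM in TREM2- libraries. The glucose transporter gene Slc2a1 averaged 180 ± 10.2 TPM in TREM2+ and 77.7 ± 17.5 TPM in TREM2- libraries. Adm, which encodes the vasodilator adrenomedullin, averaged 26 ± 5.65 TPM in TREM2+ and 9.19 ± 3.28 TPM in TREM2- libraries, and the glycolysis regulator gene Pfkfb3 averaged 27.7 ± 6.53 TPM in TREM2+ and 12 ± 1.08 TPM in TREM2- libraries. Their calls were not stable: of 6 leave-one-out fits, Hilpda was called in 2, Slc2a1 and Adm in 1 and Pfkfb3 in 0. With the replicate number added to the fit, their adjusted p ran from 0.068 to 0.0976 in limma. The part of hypoxia in the level of Vegfa was not tested.

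Of the 14 other VEGF and angiopoietin genes 11 were tested, 4 were higher and 0 lower, with a list median of 0.76. They were the receptor genes Kdr, Flt4, Tek and Tie1, which are best known from endothelium. Kdr, the main receptor of VEGF-A, was at 8.82, 5.33 and 6.9 TPM in TREM2+ libraries, against 1.43, 0.668 and 0.327 TPM in TREM2- libraries, with a log2 fold change of 2.17 ± 0.30 and an adjusted p of 0.00936 in limma. Flt4, Tek and Tie1 reached 1 TPM in no TREM2- library, so they entered the test only through the libraries where they were high. Flt1 was at 3.13 ± 1.47 TPM in TREM2+ and 2.04 ± 0.801 TPM in TREM2- libraries, and the coreceptor gene Nrp1, which macrophages also express, at 14.2 ± 1.18 TPM in TREM2+ and 11.4 ± 5.45 TPM in TREM2- libraries. Neither passed.

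Markers of sinusoidal endothelium moved with these receptors. Of 15 tested, 12 were higher and 0 lower, and Kdr, Flt4 and Tek are themselves in that list. Of the 12, 4 (Flt4, Tek, Cdh5 and Ptprb) reached 1 TPM in no TREM2- library and so had to differ once tested, which leaves 8. The list summed to 774, 679 and 554 TPM in TREM2+ libraries, against 204, 276 and 209 TPM in TREM2- libraries. Its most abundant gene was Fcgr2b, an Fc receptor that macrophages also express and that did not pass. Without Fcgr2b the sums were 376, 267 and 312 TPM in TREM2+ libraries, against 60.07, 35.4 and 30.04 TPM in TREM2- libraries. Clec4g, a lectin of sinusoidal endothelium, averaged 159 ± 32.8 TPM in TREM2+ and 13.2 ± 5.88 TPM in TREM2- libraries. Igfbp7, Vegfa, Pdgfa and Pdgfb are among the genes that endothelium can also express. The part of endothelial transcripts in their levels, and in those of the other members, was not tested.

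**Figure D3:**
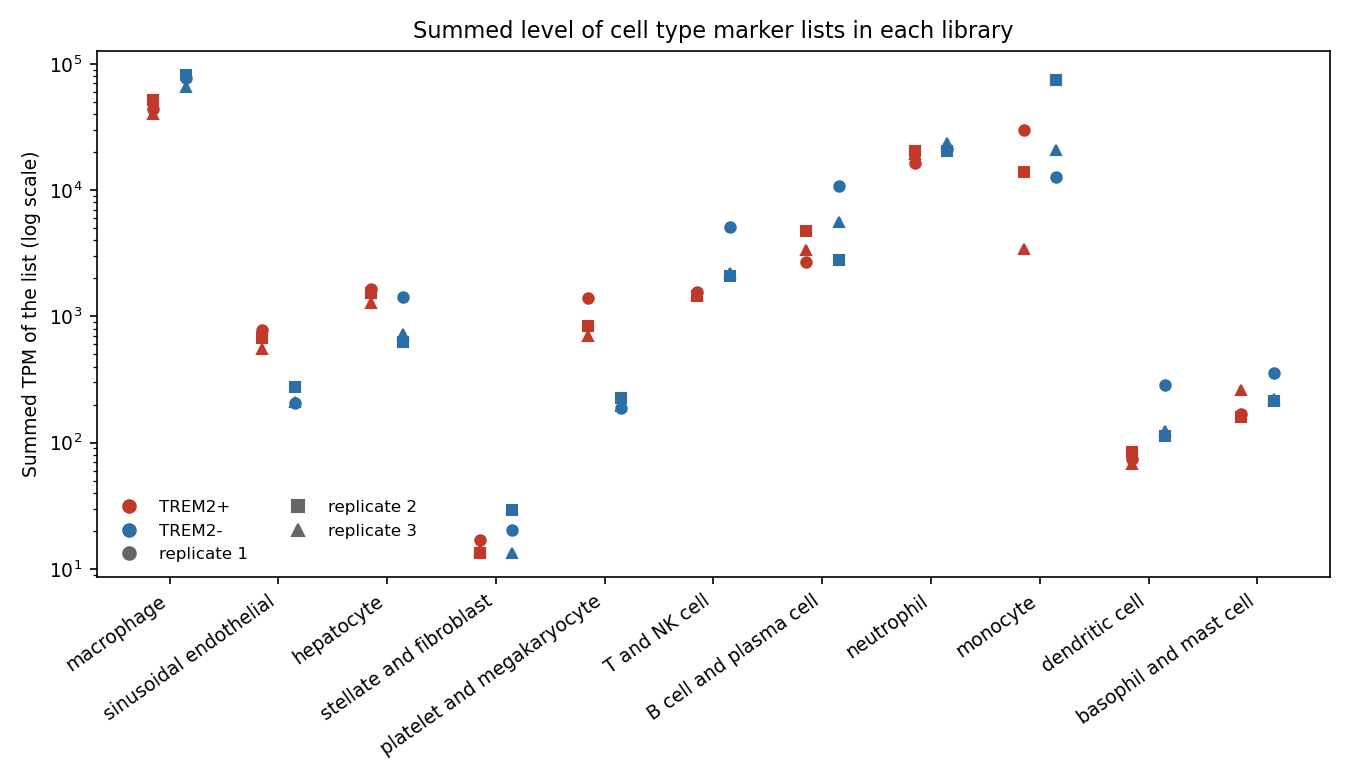
Summed TPM of each cell type marker list (vertical axis, log scale) in the 3 TREM2+ and 3 TREM2- libraries, with a symbol for each replicate. The sinusoidal endothelial list lay at 554 to 774 TPM in TREM2+ and 204 to 276 TPM in TREM2- libraries. The monocyte list spread from 3435 to 29894 TPM within the TREM2+ group, mostly from Chil3, which alone spread from 1946 to 27674 TPM there.

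Pdgfa and Pdgfb were the least abundant of the 10. Pdgfa (ENSMUSG00000025856.15, chromosome 5) was at 1.46, 2.2 and 2.5 TPM in TREM2+ libraries, against 0.827, 0.645 and 1.2 TPM in TREM2- libraries, from 15 to 50 reads per library. The groups did not overlap, but the log2 fold change of 0.69, with a 95% interval from 0.08 to 1.30, had an adjusted p of 0.316 in limma. An antisense gene, 6330403L08Rik, shares 813 exon bases with Pdgfa and reached at most 0.121 TPM; without a stated strand setting their reads cannot be told apart. Pdgfb (ENSMUSG00000000489.7, chromosome 15) was at 1.31, 1.79 and 2.55 TPM in TREM2+ libraries and 2.59, 0.451 and 1.31 TPM in TREM2- libraries, so its highest and lowest values were both in the TREM2- group. Gm41361, an antisense gene within Pdgfb that shares 0 exon bases with it, reached 3.47 TPM.

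Among the other PDGF genes 4 of 7 were tested and 1 was higher. It was Pdgfc, a ligand of PDGF receptor alpha, at 4.48 ± 0.333 TPM in TREM2+ and 0.761 ± 0.141 TPM in TREM2- libraries (log2 fold change 1.64 ± 0.23, adjusted p = 0.00966 in limma), which also reached 1 TPM in no TREM2- library. It was called in the 3 fits without 1 TREM2- library, and below the filter when a TREM2+ library was left out. The receptor genes Pdgfra and Pdgfrb, which stellate cells and fibroblasts carry, stayed at or below 0.214 and 0.819 TPM in every library and were not tested.

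Hbegf (ENSMUSG00000024486.6, chromosome 18) was at 8.24, 13.1 and 8.38 TPM in TREM2+ libraries, against 7.01, 6.13 and 6.94 TPM in TREM2- libraries. The groups did not overlap, though TREM2+ replicates 1 and 3 lay close above TREM2- replicate 1. The log2 fold change of 0.47 had a 95% interval from -0.08 to 1.03. Of the 19 other EGF family genes, limma tested 8 and voom 6; 0 were called and 0 had an unadjusted p under 0.05 in either. The shedding protease gene Adam17 was at 30.6 ± 1.31 TPM in TREM2+ and 28.1 ± 8.23 TPM in TREM2- libraries, and the receptor gene Egfr stayed at or below 0.485 TPM and was not tested. Immediate early genes, a class to which Hbegf is often counted, had 1 of 22 called higher, 0 lower and a list median of 0.1; the called gene was Ier3, called in 3 of 6 leave-one-out fits.

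Tgfb1 and Tgfbi differed least. Tgfb1 (ENSMUSG00000002603.15, chromosome 7) was at 21.5, 25.7 and 17.2 TPM in TREM2+ libraries and 27, 11.5 and 16.8 TPM in TREM2- libraries, with a log2 fold change of 0.27 and a 95% interval from -0.44 to 0.99. Tgfbi (ENSMUSG00000035493.10, chromosome 13) was at 315, 416 and 232 TPM in TREM2+ libraries and 311, 267 and 298 TPM in TREM2- libraries, with a log2 fold change of 0.1 and a 95% interval from -0.48 to 0.67. TREM2+ libraries held both the highest and the lowest value of Tgfbi. For Tgfbi, counted in 5623 to 11190 reads per library, reads were not what limited precision.

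In the TGF-beta list, 24 of 29 genes were tested, 3 were higher and 0 lower by limma, with a list median of 0.4. The 3 were Eng and Acvrl1, which encode an endothelial coreceptor and receptor, and Lrrc32, which encodes the anchor GARP that holds latent TGF-beta on cells. Eng averaged 10.2 ± 1.67 TPM in TREM2+ and 1.46 ± 0.456 TPM in TREM2- libraries and was called in 6 of 6 leave-one-out fits, against 1 of 6 for Acvrl1 and 2 of 6 for Lrrc32; Eng is also in the endothelial marker list. Among the receptor genes Tgfbr1 and Tgfbr2 overlapped, with Tgfbr1 at 25.7 ± 8.69 TPM in TREM2+ and 20.7 ± 4.07 TPM in TREM2- libraries, and Tgfbr2 at 12.5 ± 1.65 TPM in TREM2+ and 12.1 ± 5.68 TPM in TREM2- libraries. Tgfbr3, a coreceptor gene, was at 1.86, 1.26 and 1.33 TPM in TREM2+ and 0.84, 0.307 and 0.57 TPM in TREM2- libraries, without overlap, and did not pass (adjusted p = 0.339 in limma). Named after their values were seen, Tgfb3 was at 10.3, 14.97 and 5.34 TPM in TREM2+ and 1.43, 3.33 and 4.04 TPM in TREM2- libraries, and Nrros, the myeloid anchor of latent TGF-beta 1, at 141, 186 and 122 TPM in TREM2+ and 251, 284 and 177 TPM in TREM2- libraries. Neither passed, with adjusted p-values of 0.116 and 0.324 in limma.

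**Figure D4:**
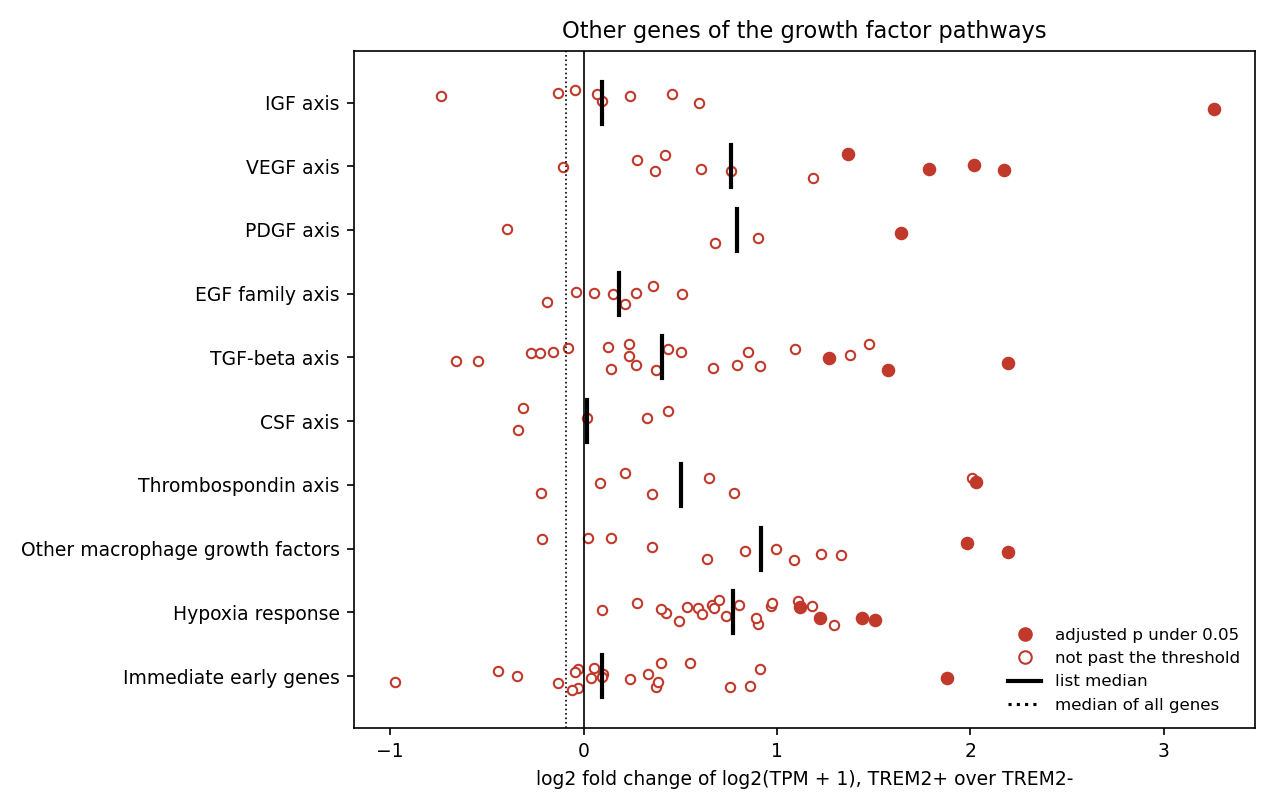
Log2 fold change of log2(TPM + 1), TREM2+ over TREM2- (horizontal axis), for each tested gene of the pathway lists (rows); filled points passed the threshold in limma, bars are list medians and the dotted line is the median of all genes. The EGF and CSF lists hold no filled point, and the hypoxia list lies wholly above 0.

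Csf1 (ENSMUSG00000014599.10, chromosome 3, 107741048 to 107760469, mm10) was at 45, 26.3 and 54.6 TPM in TREM2+ libraries, against 30.8, 14.3 and 9.95 TPM in TREM2- libraries. TREM2- replicate 1 lay above TREM2+ replicate 2. The log2 fold change was 1.24 ± 0.41 with an adjusted p of 0.223 in limma; no other setting brought it past the threshold, the lowest adjusted p being 0.072 in limma without TREM2- replicate 1. Its receptor gene Csf1r averaged 320.4 ± 66.7 TPM in TREM2+ and 247 ± 107 TPM in TREM2- libraries, with a 95% interval of the log2 fold change from -0.28 to 1.15. The second ligand of that receptor, Il34, stayed at or below 2.05 TPM and was not tested. Of the 5 of 7 other CSF genes tested, 0 were called by limma or voom and 0 had an unadjusted p under 0.05 in either.

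Thbs1 (ENSMUSG00000040152.8, chromosome 2, 118111876 to 118127133, mm10) varied most. It was at 460.4, 284 and 147 TPM in TREM2+ replicates 1, 2 and 3, against 47.1, 261 and 93.6 TPM in TREM2- replicates 1, 2 and 3. TREM2- replicate 2 lay inside the range of the TREM2+ libraries. The log2 fold change was 1.34 ± 0.60, with a 95% interval from -0.02 to 2.71 and an adjusted p of 0.404 in limma. Without TREM2- replicate 2 it was 1.99 with an adjusted p of 0.0215 in limma, while without TREM2- replicate 1 it was 0.77 with an adjusted p of 0.66, so the call and the size each turned on 1 library. An antisense gene that shares 208 exon bases with Thbs1, Gm29233, was listed at 0 TPM in all 6 libraries.

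Chil3, a chitinase-like gene in the monocyte list, ordered the libraries within each group as Thbs1 did. So did Vcan of that list, while others of it, such as Fn1 and F13a1, did not. Chil3 was at 27674, 11668 and 1946 TPM in TREM2+ libraries, against 8002, 69640 and 17898 TPM in TREM2- libraries, and in TREM2- replicate 2 it took 6.96% of the library. The monocyte list as a whole had 0 of 10 genes higher and 1 lower (Ly6c2) by limma. Its median log2 fold change was -0.9, with 1 gene above 0. Of the 10, 4 were lower in every TREM2+ library than in any TREM2- library, against 7.62% of all genes tested. The list summed to 29894, 13956 and 3435 TPM in TREM2+ and 12606, 73889 and 20857 TPM in TREM2- libraries, mostly from Chil3 in every library. The part of monocyte transcripts in the level of Thbs1 was not tested. The genes that followed Thbs1 most closely, by a list drawn up after the values were seen, were Cd38, Ecm1 and Cd300lf, with Pearson correlations of 0.991, 0.989 and 0.987 over the 6 libraries.

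Platelets carry thrombospondin-1, TGF-beta 1 and PDGF-B. Of 10 platelet markers 7 were tested and 2 were higher, Pf4 and Clec1b, both also expressed by macrophages. The list summed to 702 to 1402 TPM in TREM2+ and 189 to 226 TPM in TREM2- libraries, of which most was Pf4. Without Pf4 the sums were 229, 178 and 105 TPM in TREM2+ libraries, against 78.8, 79.4 and 56.3 TPM in TREM2- libraries. Ppbp, a chemokine gene of platelets, was at 153, 118 and 54.8 TPM in TREM2+ libraries, against 41.4, 51.8 and 33.4 TPM in TREM2- libraries, without overlap, and did not pass (adjusted p = 0.16 in limma). The platelet integrin gene Itga2b overlapped, at 2.11 to 6.22 TPM in TREM2+ and 3.53 to 8.45 TPM in TREM2- libraries, as did Gp9 at 3.54 to 12.4 TPM in TREM2+ and 5.12 to 7.31 TPM in TREM2- libraries. The part of platelet transcripts in the levels of Thbs1, Tgfb1 and Pdgfb was not tested.

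Of the 13 other thrombospondin genes and receptors 8 were tested and 1 was higher. Cd36, a receptor for thrombospondin-1 and for fatty acids, was at 89.3, 66.2 and 68.3 TPM in TREM2+ libraries, against 27.9, 14.5 and 12.8 TPM in TREM2- libraries. Its log2 fold change of 2.03 ± 0.31 had an adjusted p of 0.0115 in limma, called in 5 of 6 leave-one-out fits (without TREM2- replicate 3 it was 1.82, adjusted p = 0.0504). The receptor gene Cd47 was at 197 ± 52.6 TPM in TREM2+ and 231 ± 62.1 TPM in TREM2- libraries, with a log2 fold change of -0.22 and a 95% interval from -0.87 to 0.43.

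Beyond these families, 24 further growth factors and cytokines that macrophages can make were looked up. Of the 12 tested, 2 were higher and 0 lower, with a list median of 0.92. Bmp2, a bone morphogenetic protein that sinusoidal endothelium also makes, was at 6.08 ± 1.68 TPM in TREM2+ and 0.524 ± 0.177 TPM in TREM2- libraries, where it reached 1 TPM in none. Gdf15, a stress-induced cytokine, was at 12.5 ± 2.8 TPM in TREM2+ and 2.46 ± 1.01 TPM in TREM2- libraries, with a log2 fold change of 1.98 ± 0.29 and an adjusted p of 0.00992 in limma; without TREM2- replicate 3 it was 1.9, adjusted p = 0.0541. Over all 10 pathway lists, 127 of 178 genes were tested and 17 were higher, of which 5 (Flt4, Tek, Tie1, Pdgfc and Bmp2) reached 1 TPM in no TREM2- library.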

How the data were processed

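Per the labels, polyadenylated RNA of TREM2+ and TREM2- tumour macrophages was sequenced with paired ends, 3 libraries each. The submitters' processing notes list STAR 2.7.10a, Subread, featureCounts 2.0.3 and mm10. For the annotation, strand setting and formula no statement was found in the labels. The authors deposited a length-scaled signal named TPM, but the 6 columns together, not each, sum to 1000000. Each column was therefore rescaled to 1000000. Whole reads were recovered with GENCODE M21 exon lengths: of 36671 matched rows with signal, 98.7% were whole to 0.01 read throughout. Gene coordinates are from the same annotation.

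The test was limma 3.58.1 (R 4.3.3), two-sided, with a variance trend and Benjamini-Hochberg adjustment, applied to log2(TPM + 1) of genes that reached 1 TPM in 3 or more libraries. Fold changes on that scale understate the change of low genes. Errors after TPM are SDs (n = 3), after fold changes standard errors, and 95% intervals come from the fit. The fit was also run on simulated data with known changes and the same dispersion for every gene. Those data held no shift of the repeat family between libraries, so they cannot show how the fit deals with it. Members, lists and tests were chosen with earlier results of these data known. Named genes are the 10 members, called genes of each list, fixed receptors and a few markers, and genes of like pattern. Some further list genes were named outside that rule, among them Igf2, Igfals, Il34, Adam17, Tgfbr3, Tgfb3 and Nrros. No other per-sample column was present. Read counts carry no molecular identifiers and cover counting error only. Other settings changed the pseudocount, filter, scaling, trend, test, replicate block and libraries.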

Additional observations from a re-analysis of the deposited data

How the results depend on the processing

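Of 163 values of the 10 genes under other settings, 155 kept their direction and side of the threshold. With 1 library left out the log2 fold change ran from -0.021 to 0.63 for Pdgfb, -0.0072 to 0.58 for Tgfb1 and -0.17 to 0.45 for Tgfbr2, each below 0 without TREM2- replicate 2, and from -0.11 to 0.31 for Tgfbi, below 0 without TREM2+ replicate 2. The cause was not tested. Members called higher numbered 2 with a TPM of at least 5 and with voom, 1 to 3 when 1 library was left out and 0 by limma without both libraries numbered 3, a setting chosen after seeing the data, where 2 had an unadjusted p under 0.05. Of all genes 282 were higher and 51 lower. Without a low-value filter 95 and 3 were, on the deposited values 170 and 86, with voom 444 and 170, with the replicate block 116 and 10, and with 1 library left out 116 to 342 and 7 to 105. Lower genes numbered 31 with a pseudocount of 0.1, 80 with median-of-ratios scaling and 101 without the repeat family. Pathway genes called higher, 17 in the main test, numbered 4 without a filter, 7 on the deposited values, 30 with voom, 7 with the replicate block and 6 to 22 with 1 library left out. Without both libraries numbered 3 limma called 0 of all genes in either direction, while 636 were higher and 444 lower at p under 0.05 before adjustment, and it called 0 pathway genes, of which 38 and 1 were. The share of higher among all calls was 84.7%, against 66.4% on the deposited values, 72.3% with voom and 73.8% without the repeat family. The median of all genes was -0.09 in the main test and ran from -0.18 (voom, and without TREM2- replicate 3) to 0.05 without TREM2- replicate 1, with 0.0045 without TREM2+ replicate 3. With the replicate block Igf1 stayed called (adjusted p = 0.042 in limma), and no call among the 10 genes changed. With it limma called 0 hypoxia genes, against 4 without, and Flt4 and Pdgfc (adjusted p = 0.0515 each), Tie1, Lrrc32, Acvrl1 and Ier3 also missed the threshold. Same-numbered libraries deviated from their group means with correlations of 0.188, -0.0325 and 0.224, and not every library correlated best with its own number, so the numbers were not taken as pairs. In both groups, though, reads fell and the repeat family rose from replicate 1 to 2 to 3. The repeat family took 0.704%, 5.05% and 17.5% of the TREM2+ and 0.427%, 12.9% and 24.6% of the TREM2- libraries. Mitochondrial transcripts were highest in replicate 1 of both groups (10.02% in TREM2+, 12.3% in TREM2-) and lowest in replicate 2. The labels do not say whether same-numbered libraries share a source. Vegfb, Pdgfa and Pdgfb rested on the fewest reads, 14 to 96 per library.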
